A study of Mus musculus with 74 samples.

Results

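Naive CD4+ T cells were compared with the cells that grew from them 120 h (day 5) after activation, to find which changes in gene expression lasted to the end of the culture in every cell type. The comparison used 10 of the 74 arrays of the time course: 2 arrays of naive cells at 0 h and, at 120 h, 2 arrays for each of the Th0, Th1, Th2, and Th1/2 cultures (the last is called ThMix in the labels). Each condition had 1 array from each of 2 experiments, and the arrays were chosen by their labels for cell type and time. Naive cells came from the pooled spleen and lymph nodes of Balb/c mice of 5 to 8 weeks and were sorted magnetically for CD4 and for high CD62L, so the gate itself selected for CD62L. All cultures received antibodies against CD3 and CD28, which the labels also list for the arrays at 0 h. Th0 cells were also given blocking antibodies against IFN-γ, IL-4, and IL-12, Th1 cells IL-12 with anti-IL-4, Th2 cells IL-4 with anti-IL-12 and anti-IFN-γ, and Th1/2 cells IL-12 together with IL-4. Each condition had 1 array per experiment, so the 2 experiments and not single mice are the replicates. The p-values measure the spread between the 2 arrays of a condition that remains after a shift shared within an experiment is removed.

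A naive T cell is a small resting cell that recirculates between blood and lymph nodes, kept quiescent by factors such as KLF2 and FOXO1 and alive by IL-7. Stimulation through the T-cell receptor and CD28 makes it grow, switch to aerobic glycolysis, and divide, and cytokines present at that time direct it to a Th1 or Th2 fate. Dividing effector cells then depend on IL-2 for growth and on a high uptake of glucose and amino acids.

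Values are log2 probe intensities, and 13817 genes with a probe above the median of all values (6.77) in at least 1 condition were tested in limma. A gene was called lasting when it differed from 0 h in each of the 4 cell types, in the same direction, by at least 2-fold and with an adjusted p below 0.05. By this rule 680 genes (4.92% of those tested) were higher and 464 (3.36%) lower in every cell type. In single cell types, 1630 genes passed in Th0 cells (11.8% of those tested), 1758 in Th1 cells (12.7%), 1931 in Th2 cells (14%), and 1916 in Th1/2 cells (13.9%). The 4 contrasts share the naive arrays, so their overlap is not independent. For all 1144 lasting genes, the 8 differences between a culture and the naive array of its experiment had 1 sign. This largely follows from the rule, which used the same differences. Nearest to the 2-fold limit among higher genes, the least change over the 4 cell types was 1.002 (log2) for *Nrbp2*, just inside, and 0.999 for *Gnb5*, just outside. Among lower genes it was -1.0015 for *Fbxo27*, just inside, and -0.9992 for *Nsd1*, just outside. The 8 culture arrays all lay above both naive arrays for 678 of the 680 higher genes and all below them for 460 of the 464 lower genes. The rule selects for this separation too, so these counts describe the genes and are not further support. The median of the mean change over the 4 cell types was 1.94 (log2) for the higher genes, -1.496 for the lower genes, and 0.01 for all genes. Changes of at least 8-fold were found for 131 higher and 23 lower genes. In 85 of the higher genes both naive arrays, and in 33 of the lower genes all 8 culture arrays, lay under the median of all values, where the array's lowest values limit how large a fold can become.

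Markers of other cell types were measured beside these changes. Of 39 measured marker genes of other cell types, 17 were lasting lower, against 3.36% of all genes tested. They were 7 of 14 for B cells, 7 of 12 for macrophages and dendritic cells, and 1 of 6 for neutrophils. A further 1 of 3 was for CD8 T and NK cells and 1 of 4 for erythroid cells and platelets. The summed linear intensity of the erythroid and platelet markers was 3461 and 5174 in the naive arrays and between 423 and 472 in the 8 culture arrays. That drop rested mainly on *Hba-a1*, at 11.6 and 12.2 (log2) in naive arrays and at 6.32 to 6.78 in cultures. The median change of the 4 measured members was -0.41. The summed intensity of the B-cell markers was 12840 and 12190 against 4905 to 8306. For the macrophage and dendritic cell markers it was 9086 and 13940 against 5885 to 11430, a range that overlaps. The macrophage list includes *Adgre1*, whose change was -1.30 in Th0, -1.82 in Th1, 2.63 in Th2, and 1.85 in Th1/2 cells. Of the markers of other cell types, *Cr2* (B cells) and *Ltf* (neutrophils) were under the median of all values in naive cells. The 7 T-cell markers summed to 126400 and 111000 in naive arrays and to 78140 to 98680 in cultures, and none of them was lasting. In RNA from bulk cells, fewer cells of a type and less RNA per cell cannot be told apart, and how far such cells account for a lower gene was not tested.

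Among the 15 lasting genes with the largest rise, the first was *Aldoc*, which encodes an aldolase of glycolysis. Its level was 6.82 and 6.89 in naive cells, and the 8 cultures had a lowest level of 12.99, a median of 13.20, and a highest of 13.34. The groups were thus far apart and the cultures alike, with a mean change of 6.31 (SE 0.09, 79.5-fold, adjusted p = 1.23e-08 in limma). *Egln3*, which encodes an oxygen-sensing prolyl hydroxylase that HIF-1 itself induces, rose from 7.05 and 7.30 to between 12.38 and 13.87 (mean change 6.13, adjusted p = 9.84e-08 in limma). *Eno2*, an enolase, rose from 7.26 and 7.52 to between 12.37 and 12.93 (37.6-fold), and *Vegfa*, which encodes the angiogenic growth factor, from 6.53 and 6.71 to between 10.95 and 12.10 (31.2-fold). For *Vegfa* the 4 arrays of experiment 1 were all above the 4 of experiment 2. Cell division genes were also among the 15: *Top2a*, encoding the topoisomerase that untangles chromosomes, rose from 8.41 and 8.44 to between 13.09 and 13.53 (29.9-fold), *Nusap1*, encoding a spindle protein, rose 31.7-fold, and *Aurkb*, encoding a mitotic kinase, 27.8-fold. *Cdkn1a*, which encodes the cell cycle inhibitor p21, also rose, from 6.33 and 6.71 to between 10.90 in Th0 cells and 13.14 in Th1/2 cells (55.0-fold). *Asns*, encoding asparagine synthetase, rose 28.5-fold, and *S100a1*, encoding a calcium-binding protein, 29.5-fold. *Emilin2*, which encodes an extracellular matrix glycoprotein, rose 63.0-fold, *Kcnk5*, encoding a potassium channel, 31.0-fold, *Akr1c18*, encoding a steroid dehydrogenase, 32.8-fold, *Tube1*, encoding epsilon-tubulin, 28.3-fold, and *Mgarp*, encoding a mitochondrial protein, 32.0-fold.

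**Figure D1:**
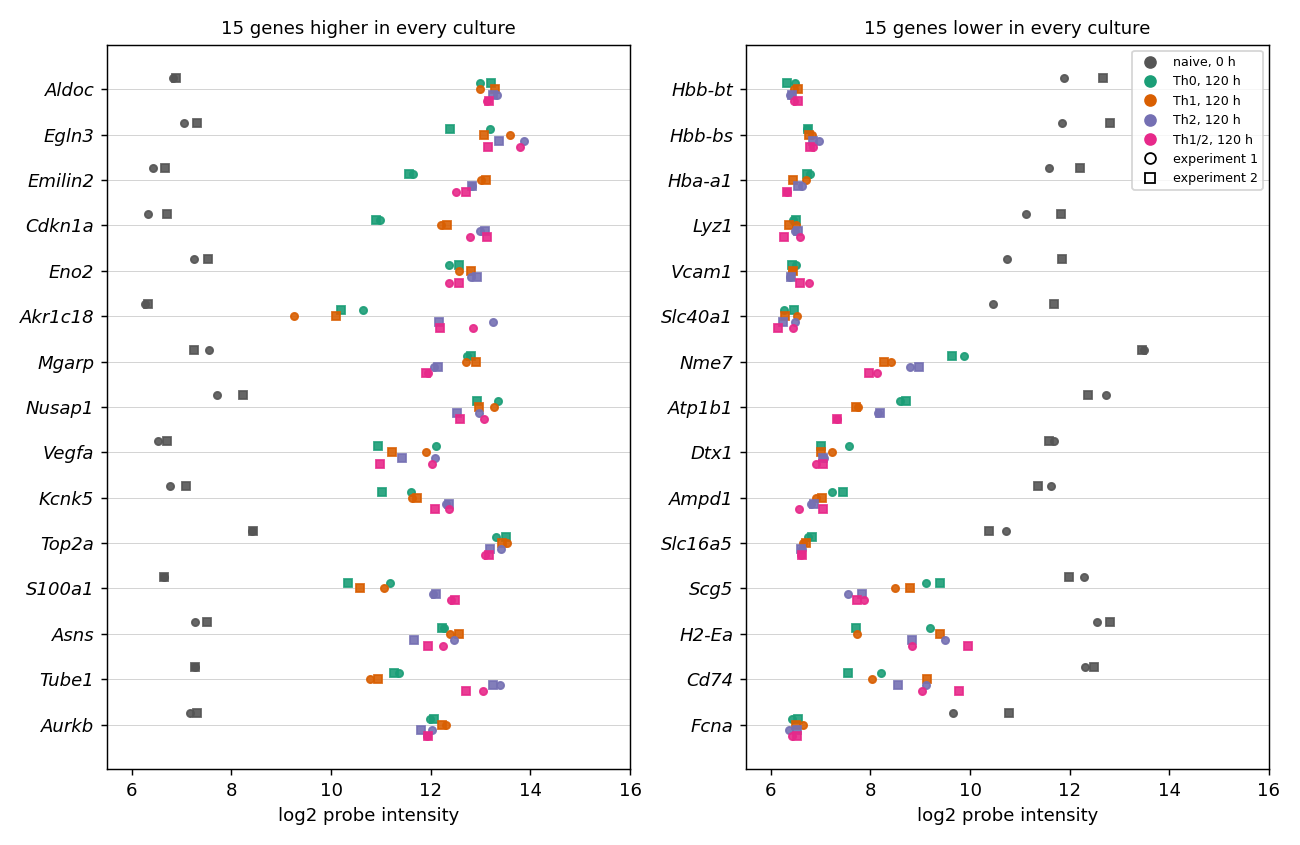
Log2 probe intensity of the 15 lasting genes with the largest rise (left) and the 15 with the largest fall (right) in all 10 arrays, with 1 point per array, colours for the conditions, circles for experiment 1, and squares for experiment 2. Naive points are apart from all culture points for every gene shown; the cultures lie close together for Aldoc (12.99 to 13.34) and far apart for Akr1c18 (9.26 to 13.24).

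Among the 15 genes with the largest fall, several are best known from other cell types. The globin genes *Hbb-bt*, *Hbb-bs*, and *Hba-a1* fell most. *Hbb-bt* was at 11.88 and 12.67 in naive cells and at 6.33 to 6.56 in all cultures, under the median of all values (mean change -5.82, SE 0.16, adjusted p = 8.03e-08 in limma). *Lyz1*, which encodes a lysozyme, fell from 11.12 and 11.82 to between 6.28 and 6.59, and *Vcam1*, *Slc40a1* (the iron exporter of macrophages), and *Fcna* (a ficolin) fell in the same way to levels under 6.78. *H2-Ea* and *Cd74*, genes of the MHC class II pathway of antigen-presenting cells, fell 13.8-fold and 13.2-fold. Globin, *Vcam1*, *Slc40a1*, and *Fcna* levels were all higher in the naive array of experiment 2 than in that of experiment 1. The summed erythroid and macrophage markers were also higher there, but these sums include *Hba-a1* and *Vcam1* and are not separate evidence. The part of other cells in these falls was not tested. The remaining 6 genes fell from high levels in both naive arrays. *Nme7*, encoding a nucleoside diphosphate kinase family member, fell from 13.48 and 13.45 to between 7.96 and 9.89 (26.1-fold, adjusted p = 2.86e-08 in limma). *Atp1b1*, which encodes a subunit of the sodium pump, fell 23.9-fold, *Dtx1*, encoding Deltex1 of the Notch pathway, 23.1-fold, and *Ampd1*, encoding AMP deaminase, 22.8-fold. *Scg5*, encoding a secretory granule chaperone, fell 13.9-fold, and *Slc16a5*, encoding a monocarboxylate transporter family member, 14.6-fold from 10.72 and 10.37 to a narrow range of 6.61 to 6.83.

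Mitosis was the gene list with the largest median change. Of its 28 measured members 25 were lasting higher and none lower, with a median change of 3.60 against 0.01 for all genes. *Cdk1*, the kinase that drives entry into mitosis, was at 7.21 and 7.27 in naive cells and between 11.24 and 12.12 in the cultures (22.8-fold, adjusted p = 4.20e-08 in limma). *Birc5*, which encodes survivin, rose 24.3-fold. For both genes all 8 cultures were above both naive arrays. The 3 members not called were *Ccna2*, higher by 1.34 on average but by 0.94 in Th2 cells, *Hmmr* (0.31), and *Nuf2* (0.16, adjusted p = 0.188 in limma), whose probe stayed near the median of all values. Of the 31 measured genes of DNA replication 24 were lasting higher and none lower (median 1.84). *Tk1*, encoding thymidine kinase, rose 16.6-fold, *Mcm10*, encoding a replication initiation factor, 16.4-fold, and *Rrm2*, encoding a subunit of ribonucleotide reductase, 9.10-fold. *Pcna*, the sliding clamp, was at 7.96 and 8.82 against 8.69 to 10.25, with overlapping groups and an adjusted p of 0.0540 in limma. The F-test among cell types called 1 gene in each of these lists, *Kif11* and *Orc1*, against 8.21% of all genes tested. Promoters of mitotic genes often hold CCAAT boxes near an element called CHR, through which these genes are kept low in resting cells. In the 250 bases before the start of the 23 members found in the RefSeq promoter table (24 windows), CCAAT on either strand was present in 79.2% of windows, against 33.8% of all 32851 windows. TTTGAA, the letters of the CHR, was present on either strand in 33.3% of them against 16% of all, and both were present in 33.3% against 5.55%. Single elements were also frequent elsewhere: TTTGAA in 36.8% of 19 windows of cytokine receptors and CCAAT in 68.8% of 16 of the sterol list. The windows of *Top2a* and *Cdk1* are shown because both rose over 20-fold on average and hold both elements, with CCAAT and TTTGAA in capitals on either strand (ATTGG and TTCAAA are the reverse). They are chr11:99024190-99024439, minus strand, and chr10:69352913-69353162, minus strand, in build GRCm38.p6, written 5′ to 3′ along the gene.
Top2a: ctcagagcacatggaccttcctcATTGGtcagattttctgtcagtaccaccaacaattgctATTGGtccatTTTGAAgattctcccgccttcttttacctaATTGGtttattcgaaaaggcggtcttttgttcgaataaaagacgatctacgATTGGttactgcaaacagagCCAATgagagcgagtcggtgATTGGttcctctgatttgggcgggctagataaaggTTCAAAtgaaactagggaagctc
Cdk1: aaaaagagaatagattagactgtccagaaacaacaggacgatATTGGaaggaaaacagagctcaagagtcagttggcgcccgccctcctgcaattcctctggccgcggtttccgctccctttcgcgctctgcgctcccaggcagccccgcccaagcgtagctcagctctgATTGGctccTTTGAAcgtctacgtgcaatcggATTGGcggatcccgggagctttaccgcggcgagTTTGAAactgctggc

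Glycolysis and targets of the hypoxia factor HIF-1 rose almost as a whole. Of 20 measured members 18 were lasting higher and none lower, with a median change of 2.27. *Tpi1*, encoding triosephosphate isomerase, was at 10.73 and 10.65 in naive cells and at 14.97 to 15.26 in cultures (21.0-fold, adjusted p = 2.50e-08 in limma). *Pgk1*, encoding phosphoglycerate kinase, rose 10.1-fold from 11.51 and 11.59 to between 14.73 and 14.95. The glucose transporter genes *Slc2a3* and *Slc2a1* rose 8.09-fold and 5.08-fold, and *Pfkp*, encoding a phosphofructokinase, 8.29-fold. *Ldha*, encoding lactate dehydrogenase A, was already at 13.75 and 13.41 in naive cells and rose 2.54-fold. *Eno3*, the muscle enolase, and *Slc16a1*, a lactate transporter gene, had mean changes of 0.11 and 0.08 (adjusted p = 0.652 and 0.507 in limma). The median change of the list lay between 2.11 in Th1/2 cells and 2.31 in Th0 cells. The F-test called 2 members, *Eno3* and *Pdk1*, against 8.21% of all genes tested. In the respiratory chain none of 27 measured genes was lasting in limma, and the median change was 0.22. By the mean change over the 4 cell types (adjusted p below 0.05 at any fold), 9 of them were higher and 1 lower, against 19.2% and 22.8% of all genes. ACGTG, the core of the HIF-1 binding motif, was found on either strand in 16.6% of all windows and 20.1% of those of tested genes. It was in 43.5% of 23 windows of the costimulatory and checkpoint receptor list, so it was not particular to glycolysis. In the glycolysis list it was found in 44.8% of the 29 windows of 19 members. Those of *Pgk1* (chrX:106186850-106187099, plus strand) and *Egln3* (chr12:54203875-54204124, minus strand) are shown as an enzyme and a HIF-1 target that rose in every cell type, with ACGTG or its reverse CACGT in capitals (CACGTG holds both).
Pgk1: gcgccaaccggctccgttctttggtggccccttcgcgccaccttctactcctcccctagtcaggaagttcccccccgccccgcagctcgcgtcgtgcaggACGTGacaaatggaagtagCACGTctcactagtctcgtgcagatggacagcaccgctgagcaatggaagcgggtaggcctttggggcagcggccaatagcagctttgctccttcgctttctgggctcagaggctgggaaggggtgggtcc
Egln3: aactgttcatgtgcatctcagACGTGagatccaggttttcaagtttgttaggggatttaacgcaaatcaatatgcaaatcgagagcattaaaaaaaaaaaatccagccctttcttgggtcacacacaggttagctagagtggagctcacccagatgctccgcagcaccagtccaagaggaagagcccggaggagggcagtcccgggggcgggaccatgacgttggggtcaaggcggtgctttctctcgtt

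Genes that supply sterols and amino acids were also higher. In the sterol and fatty acid list, 13 of 20 measured genes were lasting higher and none lower (median 2.21). *Fdps*, which encodes farnesyl diphosphate synthase of the mevalonate pathway, rose 9.55-fold from 10.86 and 10.68 to between 13.81 and 14.38, *Sqle*, encoding squalene epoxidase, 7.65-fold, and the desaturase gene *Scd2* 9.76-fold. *Elovl6*, a fatty acid elongase gene, rose 10.6-fold and differed among cell types, by 4.09 and 3.88 in Th0 and Th1 cells and by 2.87 and 2.77 in Th2 and Th1/2 cells (F-test, adjusted p = 0.00258 in limma). *Insig1*, which encodes a brake on sterol synthesis, was at 7.95 and 9.02 in naive cells and at 8.81 to 10.94 in cultures, an overlap in which no change was called (adjusted p = 0.102 in limma). ATF4 is a transcription factor that is made when amino acids are short or the endoplasmic reticulum is stressed, and of 18 measured genes of its response 9 were lasting higher and none lower (median 1.24). *Vldlr*, encoding a lipoprotein receptor, rose 26.4-fold from 6.71 and 6.73 to between 11.19 and 11.83, *Trib3*, a pseudokinase gene, 10.1-fold, and *Chac1*, which encodes a glutathione-degrading enzyme, 8.28-fold. The mRNA of *Atf4* itself was at 12.35 and 13.87 against 12.90 to 13.39 (mean change 0.03, adjusted p = 0.942 in limma). TGATGNAA, the letters searched for the ATF4 element, was found on either strand in 19% of 21 windows of 17 list members against 3.45% of all windows. Those of *Asns* (chr6:7693210-7693459, minus strand) and *Chac1* (chr2:119350992-119351241, plus strand) hold 1 match each, shown in capitals, and are printed because both genes rose over 8-fold. A match to letters is a description of the window and not evidence that a factor was bound.
Asns: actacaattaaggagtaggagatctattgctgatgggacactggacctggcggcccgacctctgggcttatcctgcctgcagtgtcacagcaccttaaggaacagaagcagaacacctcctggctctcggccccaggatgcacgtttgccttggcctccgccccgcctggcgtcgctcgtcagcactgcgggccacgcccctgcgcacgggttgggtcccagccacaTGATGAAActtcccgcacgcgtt
Chac1: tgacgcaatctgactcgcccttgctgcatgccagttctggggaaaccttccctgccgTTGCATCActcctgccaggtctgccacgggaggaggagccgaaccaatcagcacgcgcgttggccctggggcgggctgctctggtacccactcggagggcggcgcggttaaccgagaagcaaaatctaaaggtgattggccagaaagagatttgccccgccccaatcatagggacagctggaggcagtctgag

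**Figure D2:**
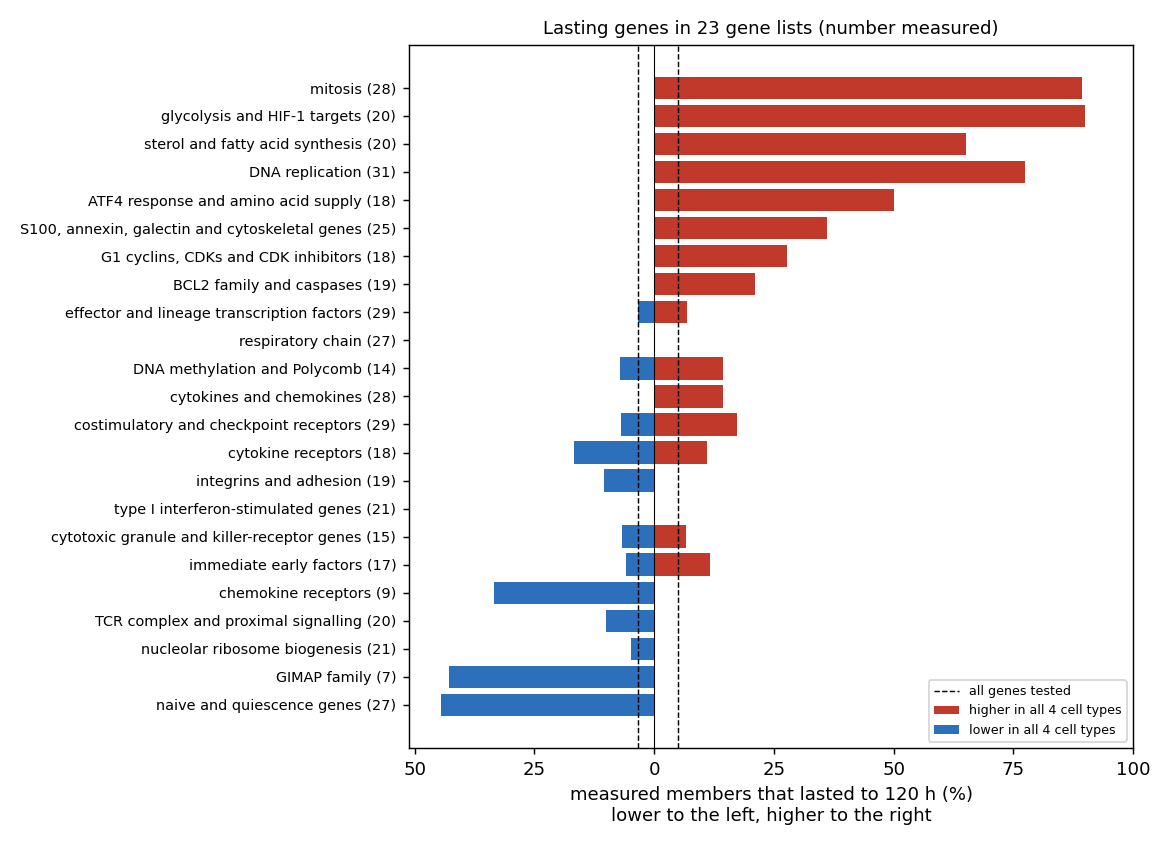
Share of the measured members of 23 gene lists that were lasting higher (red, to the right) or lasting lower (blue, to the left), in percent, with the lists in order of median change and the number measured in parentheses; dashed lines mark the share of all genes tested (4.92% higher, 3.36% lower). Mitosis, glycolysis, sterol synthesis, and DNA replication extend farthest to the right (25 of 28, 18 of 20, 13 of 20, and 24 of 31 members) and naive genes farthest to the left (12 of 27).

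Genes of the naive state fell. Of 27 measured naive and quiescence genes, 12 were lasting lower and none higher, with a median change of -1.18, and 22 were lower by the mean change over the 4 cell types (adjusted p below 0.05 at any fold, a call that 22.8% of all genes met downward and 19.2% upward). *Actn1*, encoding alpha-actinin, was at 13.82 and 13.58 in naive cells and at 9.43 to 11.56 in cultures (9.08-fold lower, adjusted p = 3.65e-07 in limma). *Nsg2* fell 7.64-fold to a narrow range of 7.24 to 7.56, *Il6ra*, encoding the IL-6 receptor, 7.22-fold, and *Tsc22d3*, which encodes the glucocorticoid-induced protein GILZ, 6.19-fold. *Klf2* was at 13.80 and 14.89 in naive cells, and the cultures had a lowest level of 11.09, a median of 12.10, and a highest of 12.65 (5.31-fold lower, adjusted p = 7.64e-05 in limma), so that all cultures were below both naive arrays and still far above the median of all values. *Il7r*, encoding the receptor for IL-7, fell from 13.81 and 13.64 to 9.88 and 10.93 in Th0 cells and to between 12.11 and 12.68 in the other cell types, and its change differed among cell types (F-test, adjusted p = 0.00173 in limma). *Foxo1* fell 2.66-fold. *Ccr7*, the lymph node homing receptor gene, had a mean change of -0.97 that rested on experiment 2: its naive levels were 10.75 and 11.86, the cultures lay between 9.93 and 10.70, and the mean change was -0.29 (adjusted p = 0.344 in limma) without the naive array of experiment 2. In the GIMAP family of GTPases, *Gimap5*, *Gimap6*, and *Gimap8*, were lasting lower among 7 measured, whereas *Gimap7* was higher by 0.92 (adjusted p = 0.0109 in limma). Without the naive array of experiment 2 that rise was 0.33 with an adjusted p of 0.0587 in limma.

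Receptors changed in both directions, and each count below stands beside the 4.92% of all genes that were lasting higher and the 3.36% lasting lower. *Il2ra*, encoding the alpha chain of the IL-2 receptor, was at 9.19 and 8.84 in naive cells and at 11.81 to 12.34 in all cultures (8.87-fold, adjusted p = 1.69e-06 in limma), and *Il2rb* rose 4.41-fold. *Tgfbr2*, *Il27ra*, and *Ifngr2* were lasting lower, *Tgfbr2* by 3.26-fold from 13.93 and 13.69 to between 11.88 and 12.31. Among 29 costimulatory and checkpoint receptors, 5 were lasting higher and 2 lower. The TNF receptor family genes *Tnfrsf9*, *Tnfrsf4*, and *Tnfrsf18*, which encode 4-1BB, OX40, and GITR, rose 10.9-fold, 9.25-fold, and 5.73-fold, and *Icos* and *Slamf1* 6.23-fold and 2.79-fold. *Crtam* and *Slamf6* were the lower ones. No chemokine receptor of 9 measured was lasting higher, and 3 were lower: *Ccr6* (5.44-fold), *Cxcr4* (4.45-fold), and *Cxcr5*. Among integrins and adhesion genes *Itgae* and *Icam2* were lasting lower of 19 measured, and *Cd44*, a marker of activated cells on the surface, was at 10.18 and 10.45 in naive cells and at 9.66 to 11.04 in cultures. Its mean change of 0.02 (adjusted p = 0.886 in limma) averaged a rise of 0.64 in Th2 cells and a fall of -0.62 in Th1/2 cells (adjusted p = 0.00357 and 0.00416 in limma), and the cell types differed (F-test, adjusted p = 0.00245 in limma). Of 20 genes of the T-cell receptor complex and its signalling only *Prkcq*, encoding protein kinase C theta, and *Sit1* were lasting, both lower.

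Of 28 measured cytokines and chemokines 4 were lasting higher, against 4.92% of all genes, and none lower, with a median change of 0.18. They were *Lta*, encoding lymphotoxin alpha (9.09-fold, with naive levels of 9.52 and 9.77 and cultures between 12.45 and 13.20), *Lif* (7.07-fold), *Ccl5* (3.41-fold), and *Il4* (18.0-fold). Of 29 effector and lineage transcription factors 2 were lasting higher, *Bhlhe40* and *Irf4*, against 4.92% of all genes. *Bcl6*, a factor of follicular helper T cells, was the only 1 lasting lower (4.07-fold), against 3.36% of all genes. *Bhlhe40* was at 7.40 and 9.68 in naive cells and at 12.08 to 12.90 in cultures, and its mean change was 5.14 in experiment 1 and 2.76 in experiment 2. The factors that define fates were not lasting by this rule: *Tbx21* rose in Th1 and Th1/2 cells by 2.52 and 2.71, with 0.39 and -0.29 in Th0 and Th2 cells, and *Gata3* rose in Th2 and Th1/2 cells by 1.84 and 1.85, with -0.49 and -0.94 in Th0 and Th1 cells. *Il24*, a cytokine gene, was not lasting either: its change was 0.82 in Th0 cells, 2.21 in Th1 cells, 7.36 in Th2 cells, and 7.21 in Th1/2 cells. *Myc* was higher by 1.12 on average, and *Il2* had a mean change of -0.52 (adjusted p = 0.0514 in limma). *Ier3* (20.0-fold) and *Fosl2* (5.94-fold) were the lasting higher genes among 17 immediate early factors, and *Jun* was the lasting lower one. The naive arrays themselves were unlike for this list. *Fos*, *Jun*, and *Dusp1* were at 11.14, 8.58, and 12.22 in experiment 1 and at 13.87, 11.20, and 14.88 in experiment 2, and 7 of the 17 genes were higher by over 1 (log2) in the naive array of experiment 2, against 1.01% of all genes. The mean change of *Jun* was -0.76 in experiment 1 and -2.39 in experiment 2, and it did not pass without the replicate block (adjusted p = 0.108 in limma).

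Genes of the cytoskeleton and of survival completed the lasting changes. Of all genes tested, 4.92% were lasting higher and 3.36% lower. In the list of S100, annexin, galectin, and cytoskeletal genes, 9 of 25 measured were lasting higher and none lower (median 0.98). *Anxa2*, which encodes annexin A2, rose 22.4-fold from 10.08 and 10.25 to between 14.36 and 14.98, *Tubb6*, a beta-tubulin gene, 14.5-fold, *Lgals1*, encoding galectin-1, 7.71-fold, and *Vim*, encoding vimentin, 4.91-fold. *S100a4* was lower by 0.61. Of 19 genes of the BCL2 family and caspases 4 were lasting higher, among them the survival genes *Bcl2* (2.97-fold) and *Bcl2l1* (2.64-fold) and also *Casp4* and the death receptor gene *Tnfrsf10b*. Of 18 G1 cyclins, kinases, and inhibitors 5 were lasting higher, among them the inhibitor genes *Cdkn1a* and *Cdkn2c* (5.18-fold) beside the kinase gene *Cdk6* (4.01-fold). *Uhrf1* and *Ezh2*, which maintain DNA methylation and deposit a repressive histone mark, were lasting higher and *Cbx7* lower among 14 genes of DNA methylation and Polycomb. *Serpinb6b*, a serpin gene, was lasting higher and *Klrd1*, which encodes a killer-cell receptor chain, lower among 15 cytotoxic and killer-receptor genes. None of 21 type I interferon-stimulated genes was lasting in limma. By the mean change 2 of these interferon-stimulated genes were higher and 3 lower, against 19.2% and 22.8% of all genes. Their median change was 0.56 in Th0, 0.14 in Th1, -0.95 in Th2, and -0.43 in Th1/2 cells. The F-test among cell types called only 1 of the 21, *Ifit2*, against 8.21% of all genes tested.

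**Figure D3:**
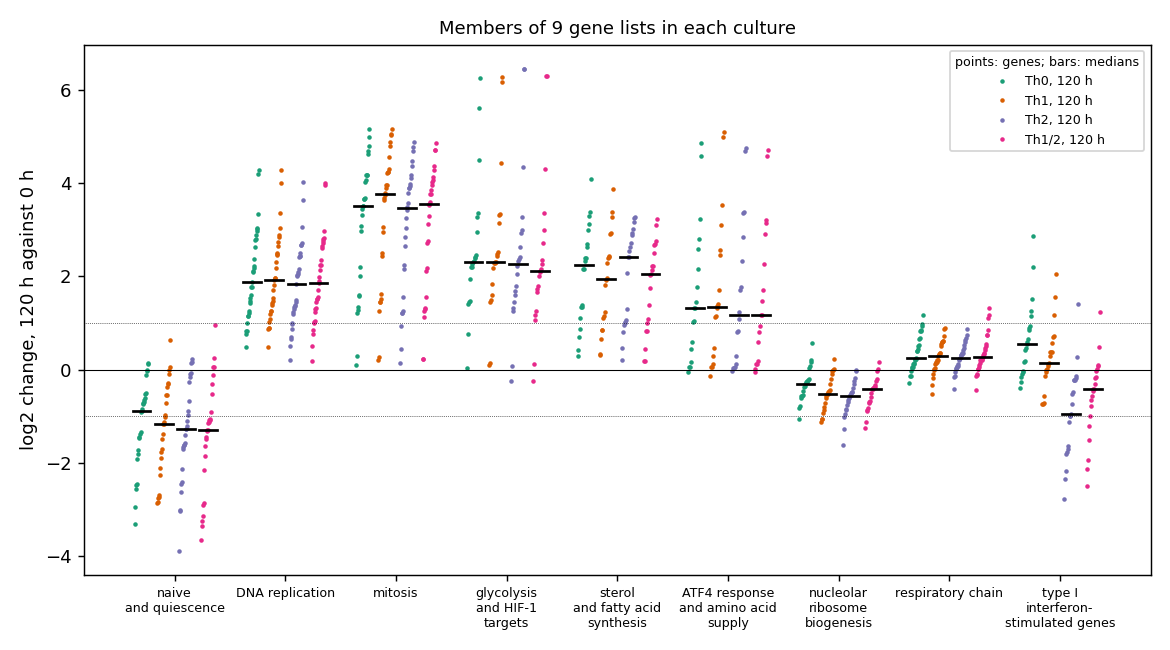
Log2 change at 120 h against 0 h of each measured member of 9 gene lists (points) and the list median (bars), by cell type; dotted lines mark 2-fold. The 4 medians lie close together for mitosis, DNA replication, and glycolysis (2.11 to 2.31 for glycolysis), whereas those of interferon-stimulated genes run from 0.56 in Th0 to -0.95 in Th2 cells. The F-test among cell types called only 1 of the 21 interferon-stimulated genes.

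A lasting gene could still have unequal levels in the 4 cell types. The F-test among the cell types at 120 h, which uses no naive contrast, called 1134 genes (8.21% of those tested) and 228 of the 1144 lasting genes (19.9%), 160 higher and 68 lower. This count depends on the model: it was 637 without the replicate block, 593 without the Th0 array of experiment 2, and 2134 without either naive array. *Il4* had the widest range of cell type means, 5.00. Its level was 7.01 and 7.87 in naive cells, 9.71 and 8.15 in Th0 cells, and 10.52 and 9.77 in Th1 cells. It was 13.39 and 13.51 in Th2 cells and 13.89 and 13.95 in Th1/2 cells (F-test, adjusted p = 0.00107 in limma), so every culture was above both naive arrays and the cultures given IL-4 were highest. *Lilr4b*, encoding an inhibitory immunoglobulin-like receptor, followed with a range of 3.88, and *Fam229b* with 3.42. *Myo6*, a myosin gene, rose from 9.88 and 9.87 to between 11.66 and 12.51 in Th0 and Th1 cells and to between 14.90 and 15.31 in Th2 and Th1/2 cells. *Pros1*, encoding the anticoagulant protein S, *Ecm1*, encoding extracellular matrix protein 1, *Akr1c18*, and *Cst7*, encoding cystatin F, were also highest in Th2 and Th1/2 cells. *Nrn1*, which encodes neuritin, had another: it rose by 5.11 in Th0, 4.57 in Th1, 3.47 in Th2, and 2.05 in Th1/2 cells. *Hsd11b1*, encoding a glucocorticoid-activating enzyme, fell by 1.39 and 1.19 in Th0 and Th1 cells and by 4.24 and 3.83 in Th2 and Th1/2 cells.

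**Figure D4:**
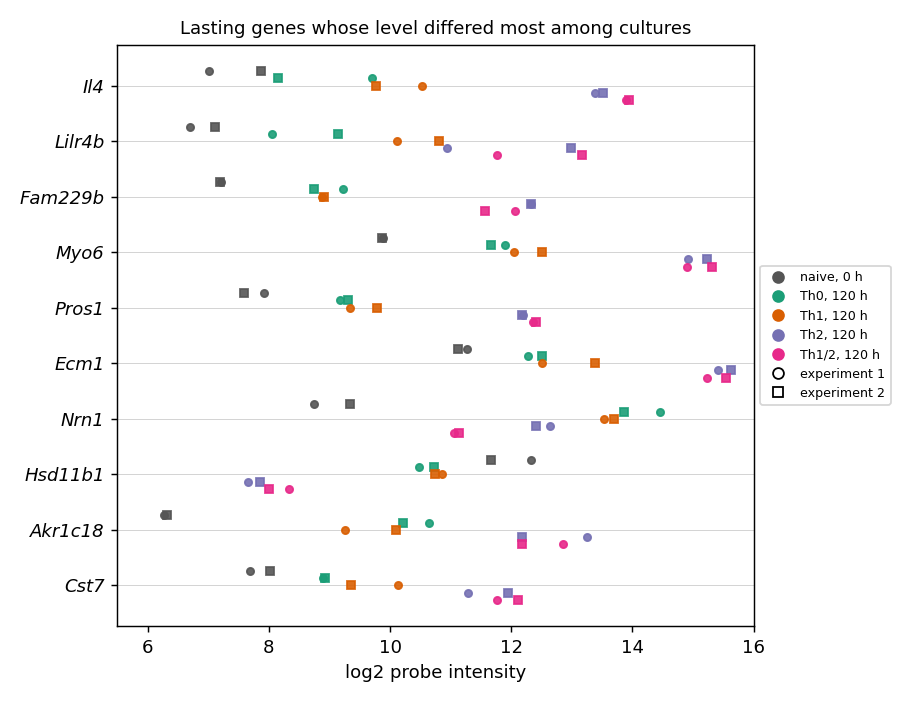
Log2 probe intensity in all 10 arrays of the 10 lasting genes with the widest range of cell type means at 120 h among those called by the F-test; colours mark the conditions, circles experiment 1 and squares experiment 2. In 9 of the 10 genes Th2 and Th1/2 arrays lie on 1 side of the Th0 and Th1 arrays with the larger change from naive cells, and in Nrn1 with the smaller.

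The separation of *Il4* was the most frequent one. For 155 of the 228 lasting genes that differed (68%), the 4 arrays of cells given IL-4 (Th2 and Th1/2) lay all on 1 side of the 4 arrays of Th0 and Th1 cells. The same held for 67.4% of the 906 other genes that differed and for 12.3% of all genes. Of the 155, 71 lasting higher genes were higher still and 34 less high in the IL-4 cultures, and 46 lasting lower genes were lower still. The arrays of cells given IL-12 (Th1 and Th1/2) stood apart from the others for 19 of the 228 (8.33%). The same held for 6.73% of the other genes that differed and 2.59% of all genes. Th0 arrays stood apart from all others for 92 (40.4%), against 36.1% of the other genes that differed and 11.2% of all genes. Among the 92, 58 lasting higher genes were lowest and 24 lasting lower genes were highest in Th0 cells. Th2 arrays stood apart for 68 (29.8%), against 32% of the other genes that differed and 10.5% of all genes.

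The other time points place the start of these changes. At 3 h, 116 of the 464 lasting lower genes (25%) but only 67 of the 680 lasting higher genes (9.85%) were already changed at least 2-fold in all 4 cell types. At 24 h the numbers were 323 and 377, and at 48 h 370 and 512. At 96 h they were 338 and 579, and 380 and 599 without the Th0 array of experiment 2 at that time. Of all 13817 genes tested, 489 were lower and 481 higher by this limit at 3 h, and 1021 and 1211 at 24 h. At 48 h these counts over all genes were 858 and 1000, and at 96 h, with all arrays, 430 and 657. The most frequent time of entry among lasting higher genes was 24 h: 183 passed 2-fold at 24 h and stayed above it at every later time. Among the lasting lower genes, 87 were at least 2-fold lower at every time from 3 h. With all arrays, 126 were not 2-fold lower in all 4 cell types at 96 h. This number rests partly on the Th0 array of experiment 2, since 380 of the 464 passed without it and 338 with it. Some lasting higher genes also fell short at 96 h, when 579 of the 680 passed. At 48 and 73 h, 370 and 369 of the lasting lower genes had passed. The median change of the lasting higher genes reached 1.37 at 24 h and 1.91 at 48 h and was 1.94 at 120 h, and that of the lower genes was -1.59 at 24 h.

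**Figure D5:**
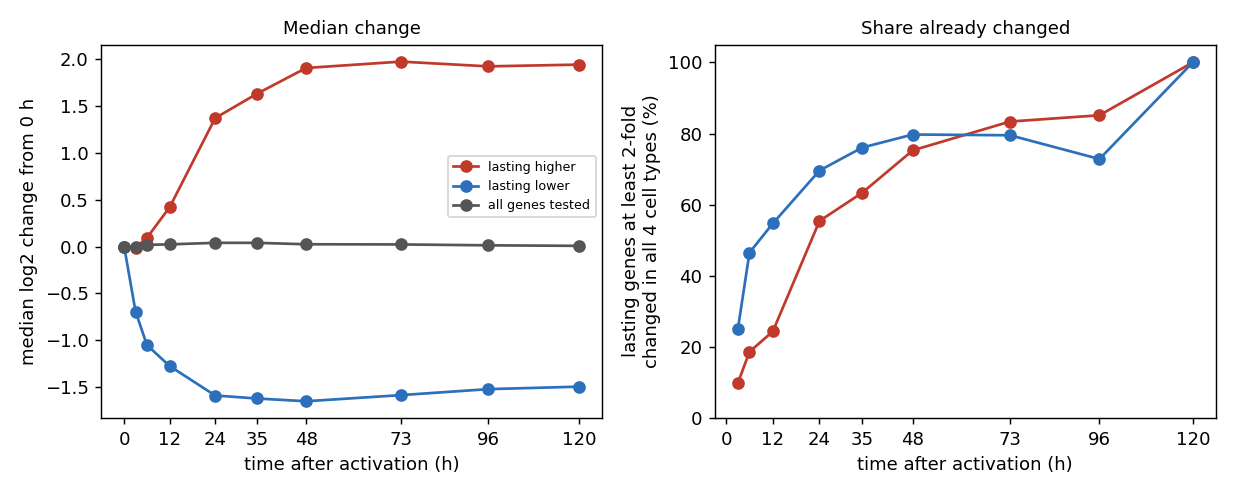
Median log2 change from 0 h over the 4 cell types (left) and share of genes changed at least 2-fold in all 4 cell types (right, in percent) for the lasting higher and lasting lower genes at each time after activation. By construction the share is 100% at 120 h. Up to 48 h the lower genes lead (25% against 9.85% at 3 h), and at 73 and 96 h the higher genes do. Of all 13817 genes tested, 489 were lower and 481 higher by this limit at 3 h.

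Single genes took separate routes to the same end. *Top2a* had a mean level over the cell types of 8.43 at 0 h and 8.53 at 12 h, which then rose to 12.63 by 24 h and 13.33 by 120 h. *Aldoc* rose later, from 6.68 at 12 h through 11.06 at 48 h to a final 13.17, and *Emilin2* later still, with only 8.12 at 48 h before it reached 12.52 by day 5. *Asns* had its highest level, 13.94, at 48 h. *Klf2* went from 14.35 at 0 h to 8.47 at 35 h and back to 11.94 at 120 h, and *Il7r* from 13.73 to 8.81 and back to 11.90, so for both the difference at day 5 was what remained of a deeper fall. *Dtx1*, *Ampd1*, and *Slc16a5* had fallen by over 3 (log2) at 6 h and did not come back.

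Other early changes did not last. Of 1011 genes at least 2-fold higher in all 4 cell types at both 24 and 35 h, 366 were lasting and 238 were within 0.5 (log2) of the naive level in all 4 cell types at 120 h. Of 893 lower ones, 320 were lasting and 94 had returned. *Il3*, encoding a growth factor of myeloid cells, started from 6.49, reached 11.93 at 35 h, and ended with 6.63. *Lad1*, encoding ladinin, and *Crabp2*, encoding a retinoic acid-binding protein, returned in the same way, from mean changes of 3.73 and 3.27 at 24 and 35 h. *Ypel3*, encoding a protein of the yippee family, went from 14.26 to 9.79 at 24 h and back to 13.89. Nucleolar genes of ribosome biogenesis went past their start: their median change was 1.15 at 24 and 35 h and -0.49 at 120 h. At 120 h, 15 of 21 were lower by the mean-change test, against 22.8% of all genes, and none higher. Only 1 of them (*Bop1*) was lasting lower. The cause of these courses was not tested.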

How the data were processed

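The series holds 74 Illumina Mouse Sentrix-6 arrays, 10 of which entered the comparison at 120 h. The deposited table gives linear intensities per probe (55.8 to 69892, array medians 107 to 111). The paper reports background correction and quantile normalization, but medians and extremes of the deposited arrays were not identical. For the main fit log2 was taken and nothing further was normalized. Quantile normalization, as an alternative, gave 683 lasting higher and 460 lasting lower genes. Of 45135 probes, 34773 had 1 gene symbol, 18 several, and 10344 none in the platform annotation. A probe was kept when its mean exceeded the median of all values in at least 1 of 37 conditions, and the brightest probe stood for each gene. In limma 3.58.1 (R 4.3.3), condition means with the experiment as a block were fitted to the 10 arrays (4 residual degrees of freedom, prior 4.02, median residual SD 0.12), with Benjamini-Hochberg adjustment per contrast over all 13817 genes. The number of arrays limits the precision. Same-numbered cultures deviated together (correlation of differences between experiments across genes 0.515 to 0.722), whereas naive arrays and cultures hardly did (0.0362 to 0.151). The block thus removed a shift that naive arrays hardly shared, and the error of contrasts with naive cells may be too small. Named genes were the 15 lasting genes with the largest change in each direction, up to 4 passing members with the largest change per list, 10 lasting genes with the widest range among cell types, 5 returned genes in each direction, and 15 set genes (11 of them measured); other list members named in the text were chosen after their values were seen. Members and lists were chosen with earlier results of these data known. The steps were tested on simulated data.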

Additional observations from a re-analysis of the deposited data

Results flagged for a closer look

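For 10 lasting genes named for their range, the cell types differed at 120 h by the F-test, and the range of the 4 means (log2) was 5.00 for *Il4*, 3.88 for *Lilr4b*, 3.42 for *Fam229b*, 3.33 for *Myo6*, 3.14 for *Pros1*, 3.12 for *Ecm1*, 3.06 for *Nrn1*, 3.05 for *Hsd11b1*, 3.03 for *Akr1c18*, and 3.02 for *Cst7*.

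A further 11 genes were called higher in at least 1 cell type and lower in another, and all passed the F-test. *Adgre1*, which encodes the macrophage antigen F4/80, had a range of 4.46: it was at 7.47 and 8.72 in naive cells, and its change was -1.30 in Th0, -1.82 in Th1, 2.63 in Th2, and 1.85 in Th1/2 cells. *Nkg7*, encoding a granule protein of killer cells, had a range of 4.20, with changes of -0.11, 2.44, -1.76, and -1.05 in the same order. The ranges of the others were 3.86 for *P2ry14*, 3.68 for *Ifng*, 3.19 for *Ntrk3*, 3.09 for *Apobec1*, 2.96 for *Cxcr3*, 2.76 for *Phf11a*, 2.48 for *Ms4a6d*, 2.41 for *Gbp3*, and 2.11 for *Marcks*. *Cxcr3*, a chemokine receptor gene of Th1 cells, was higher in Th1 and Th1/2 cells (1.24 and 1.09) and lower in Th2 cells (-1.72).

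Of 5871 expressed probes that no symbol is listed for, 129 were lasting higher and 211 lasting lower by the same rule; they entered no count of genes.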

How the results depend on the processing

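No named gene that passed the mean-change test reversed its direction under any alternative (141 named genes, 2960 values). Of these values, 2886 kept direction and call or changed sign in a gene that had not passed. *Ifng*, which had not passed, had a mean change of -0.016, with 0.21 in experiment 1 and -0.24 in experiment 2. With the sign kept, 14 genes lost or gained the mean-change call under at least 1 alternative: *Ccr7*, *Ddx58*, *Egr3*, *Fam102a*, *Gata3*, *Gimap7*, *Il2*, *Irf9*, *Jun*, *Klhl24*, *Lat*, *Ly6c1*, *Ndufb9*, and *Ypel3*. Without the replicate block, 643 genes were lasting higher and 438 lower, and the genes that differed among cell types fell from 1134 to 637. With all 74 arrays that count was 1367 without and 1574 with the block. Leaving out 1 array at a time gave 593 to 2134 genes that differed, with 656 to 784 lasting higher and 435 to 542 lasting lower. A limit of 1.5-fold gave 3303 genes in Th0, 3499 in Th1, 3700 in Th2, and 3716 in Th1/2 cells, with 1170 lasting higher and 1228 lower. The adjusted p alone gave 4703, 4834, 5070, and 5169 genes, with 1578 and 1886 lasting. The mean of a gene's probes gave 533 and 314 lasting genes, and no filter on dim probes 675 and 461. Experiment means, 2 against 2, an alternative chosen after seeing the data as were the counts without single arrays at 12 and 96 h, called 3588 genes by mean change in place of 5812. Of the 1144 lasting genes, 852 were changed at least 2-fold in all 4 cell types within each experiment taken alone. The cause of these shifts was not tested. Levels near the median of all values limit the folds of dim genes.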
